A study of Mus musculus with 6 samples.

Results

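The genes described here are the mouse mitochondrial ribosomal protein genes, chosen as every gene whose symbol starts with Mrpl or Mrps and that was listed in at least 1 of the 6 libraries. There were 78 of them among 16749 listed genes, 49 with the prefix Mrpl (large subunit) and 29 with the prefix Mrps (mostly small subunit). All 78 were listed in each of the 6 libraries and all 78 passed the filter on low values used for testing, so none was left out of any count. The lowest count of a member in a library was 85 reads.

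The study sequenced RNA of sorted CD8+ T cells from a tissue labelled iLN. The C57BL/6 mice carried tumors and had been treated with oxaliplatin, a platinum compound used in chemotherapy. The Id2 knockout group held 3 libraries of genotype Cd4creId2f/f. The WT group held 3 libraries of genotype Id2f/f, with floxed Id2 alleles and no Cre. Id2 is an inhibitor of E protein transcription factors. The Cd4-Cre transgene acts in developing T cells, before CD8+ T cells leave the thymus, so Id2 was not removed only at the time of treatment. Cre was carried by the knockout group alone, and its own effect cannot be told apart from that of Id2 loss. The labels do not say whether each library came from a separate mouse, so the spread behind the p-values is that between samples and may be technical.

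Mitochondria carry their own ribosome, which translates the few proteins encoded by mitochondrial DNA, all of them subunits of the respiratory chain and ATP synthase. Its RNAs come from mitochondrial DNA, while its proteins are encoded in the nucleus, made in the cytosol and imported. Some of these proteins have bacterial counterparts and others were added during the evolution of mitochondria. T cells raise mitochondrial translation when they are activated, and they need it for proliferation and effector function.

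Id2 itself was measured at 1.67, 2.64 and 2.12 FPKM (a read level scaled by transcript length and library size) in the knockout libraries, against 371, 147 and 149 FPKM in the WT libraries. The log2 fold change of knockout over WT was -6.72 with a standard error (SE) of 0.47 (adjusted p = 8.47e-05, edgeR). The labels name Id2 as the gene knocked out in the knockout group. Total expected counts per library ran between 7699181 and 7990095 in knockout and between 8307284 and 8495123 in WT. The CD8 and CD3 genes that define the sorted cells were high in all 6 libraries, with Cd8a between 196 and 232 FPKM in knockout and between 200 and 221 FPKM in WT. Transcripts of B cells were also present, and 3 libraries stood apart in them. The summed level of 15 listed B cell markers was 707, 3032 and 636 FPKM in the knockout libraries, against 957, 3194 and 3722 FPKM in the WT libraries, so 1 knockout and 2 WT libraries were high. Among the 14 of these that were tested, edgeR, DESeq2 and limma made 0 calls, and 0 reached an unadjusted p under 0.05 in edgeR, while the log2 fold change of all 14 was below 0, with a median of -0.87. Both values rest on knockout replicate 2, without which 12 of these markers were lower and the median was -1.98.

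The mitochondrial ribosomal protein genes were lower in the knockout libraries by a small amount, and most of them did not pass the test. Of the 78 genes, 9 fell in knockout and 0 rose (edgeR's quasi-likelihood test, Benjamini-Hochberg adjusted p under 0.05 over all genes tested). That is 11.5% of the members, beside 8.77% of all 10890 tested genes that fell, so the share of falling members was near that of all genes. Over all tested genes 3.14% rose. At an unadjusted p under 0.05, 18 of 78 members were lower and 0 were higher, beside 1750 lower and 1251 higher of all 10890 tested genes. DESeq2 and limma each gave 8 falls and 0 rises. The number of falls was 2 without knockout replicate 3 or without WT replicate 3, when 517 and 564 of all genes fell, and 5 without knockout replicate 1 or without WT replicate 2. With or without a call, 66 of 78 members (84.6%) had a log2 fold change below 0, against 48.1% of all tested genes. The members were measured in the same 6 libraries, so their directions are not independent of each other. The median log2 fold change was -0.17 over the members and 0.01 over all tested genes. In 27 members (34.6%) all 3 knockout libraries lay below all 3 WT libraries in FPKM, and in 2 members all lay above, against 16.8% and 15.3% of all tested genes. In bulk RNA, fewer cells of a type and less RNA per cell cannot be told apart.

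**Figure D1:**
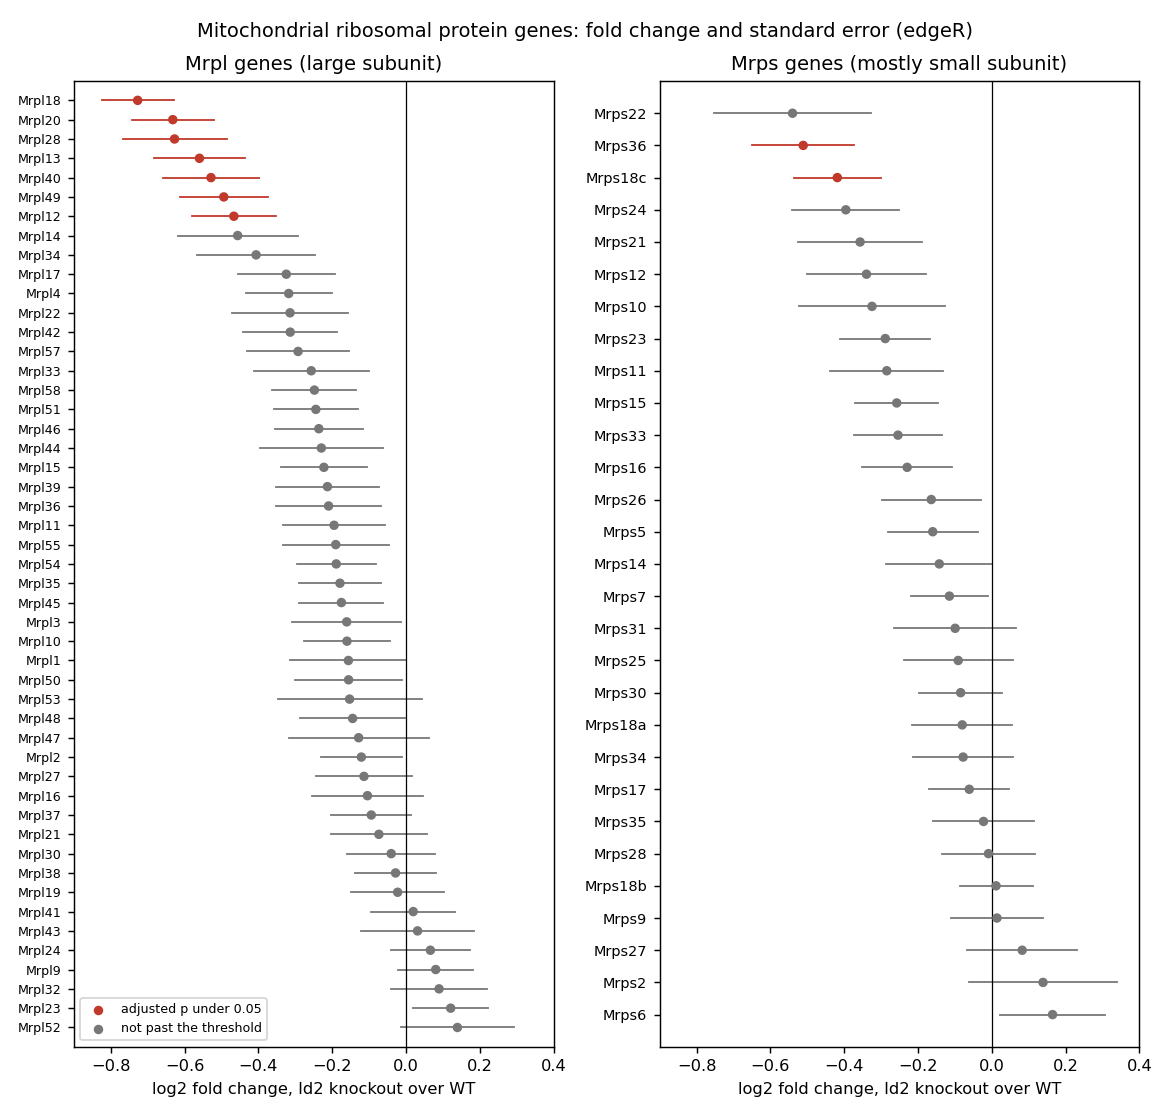
Fold change of each mitochondrial ribosomal protein gene on the log2 scale (Id2 knockout over WT, edgeR), with Mrpl genes on the left and Mrps genes on the right; points are estimates, bars are 1 standard error, and red marks an adjusted p under 0.05. The 9 red genes all lie left of 0, from Mrpl18 at -0.73 to Mrps18c at -0.42, and 12 of 78 genes lie right of 0.

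The Mrpl genes held 7 of the 9 calls and were 49 of the 78 members. The share that fell was 14.3% of the Mrpl genes and 6.90% of the Mrps genes, beside 8.77% of all tested genes. Mrpl18, the counterpart of the bacterial protein L18 in the central protuberance of the large subunit, had the largest fall. Its levels were 64.0, 65.3 and 57.7 FPKM in the knockout libraries, against 96.3, 103 and 107 FPKM in the WT libraries. The groups were far apart relative to their spread, with a mean of 62.3 ± 4.05 FPKM in knockout and 102 ± 5.55 FPKM in WT (SD, n = 3 each). The log2 fold change was -0.73 with an SE of 0.10, which is 1.66-fold lower in knockout (adjusted p = 0.00118, edgeR). Mrpl20, whose bacterial counterpart L20 is needed to assemble the large subunit, stood at 47.6, 55.5 and 50.5 FPKM in knockout, against 77.0, 82.0 and 76.6 FPKM in WT. All knockout values lay well below all WT values. Its log2 fold change was -0.63 with an SE of 0.11 (adjusted p = 0.00547, edgeR). Mrpl18 and Mrpl20 were the only members that passed the threshold in all 16 alternative fits.

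Mrpl18 lies on chromosome 17 (12911345 to 12917787, minus strand, mm10) and Mrpl20 on chromosome 4 (155802878 to 155808831, plus strand, mm10). The promoters of the members were searched for short motifs, because the 9 called members all fell. Motif shares are given as descriptions, with no test. Below are those of Mrpl18, the gene with the largest fall, of Mrps18c, the called gene with the highest level among the Mrps genes, and of Mrpl12, a called gene that held none of the searched motifs. Each runs from 250 bases before to 50 bases after the RefSeq transcript start, 5′ to 3′ on the gene's strand, in GRCm38.p6, the assembly that mm10 names. For Mrpl18 that start lies inside the range given above, which covers all RefSeq transcripts of the gene, predicted ones included, and reaches further upstream. Capitals mark every match to a searched motif on either strand.

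Mrpl18 (chr17:12916042-12916341, minus strand): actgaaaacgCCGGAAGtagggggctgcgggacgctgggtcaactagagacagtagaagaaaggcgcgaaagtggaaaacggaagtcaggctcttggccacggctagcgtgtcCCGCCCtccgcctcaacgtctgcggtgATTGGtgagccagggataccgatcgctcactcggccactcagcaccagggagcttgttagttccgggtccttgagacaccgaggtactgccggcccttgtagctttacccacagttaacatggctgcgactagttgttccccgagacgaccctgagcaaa
Mrps18c (chr5:100798509-100798808, plus strand): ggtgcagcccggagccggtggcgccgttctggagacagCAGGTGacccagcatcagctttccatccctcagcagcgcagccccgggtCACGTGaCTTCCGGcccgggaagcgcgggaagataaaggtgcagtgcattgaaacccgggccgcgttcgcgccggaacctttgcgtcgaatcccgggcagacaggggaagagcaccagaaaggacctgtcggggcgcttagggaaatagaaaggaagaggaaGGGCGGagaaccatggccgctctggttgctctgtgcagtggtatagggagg
Mrpl12 (chr11:120484387-120484686, plus strand): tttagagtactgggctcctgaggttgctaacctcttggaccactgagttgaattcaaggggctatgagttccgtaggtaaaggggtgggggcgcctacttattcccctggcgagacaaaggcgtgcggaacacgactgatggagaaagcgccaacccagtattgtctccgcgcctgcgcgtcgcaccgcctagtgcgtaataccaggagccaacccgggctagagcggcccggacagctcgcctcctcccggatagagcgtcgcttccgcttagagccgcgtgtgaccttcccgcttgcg

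In the Mrpl18 promoter the capitals are an ETS motif, a GC box (here on the other strand) and a CCAAT box (on the other strand). In that of Mrps18c they are the E-box CACCTG (on the other strand), the E-box CACGTG, an ETS motif (on the other strand) and a GC box. E-boxes of the forms CAGCTG and CACCTG are the kind that E proteins bind, and CACGTG is the kind that Myc binds. No matches overlap in these promoters. Sequences were at hand for 69 of the 78 members, with 75 promoters, and for 8 of the 9 called members.

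Over the 75 member promoters the ETS motif CCGGAAG was present in 34.7%, against 8.86% of all 32851 promoters and 19.5% of the 10865 promoters in the table that belong to tested genes. The core NRF1 motif CGCATGCG, a site of a factor that controls many mitochondrial genes, was present in 9.33% of member promoters, against 1.87% of all promoters and 4.12% of those of tested genes. For the YY1 motif GATGGCGG the shares were 6.67% of member promoters, 1.70% of all and 3.80% of those of tested genes. Of the E-boxes, CAGCTG was in 16.0% of member promoters, against 14.4% of those of tested genes, and CACCTG was in 13.3% of member promoters, against 17.5% of those of tested genes. CACGTG was in 9.33% of member promoters and 10.5% of those of tested genes. The GC box GGGCGG was in 52.0% of member promoters and 62.0% of those of tested genes, CCAAT in 40.0% and 38.7%, and the TATA box TATAAA in 6.67% and 7.27%. The motifs CACGTG, CGCATGCG and CAGCTG read the same on both strands, GGGCGG and GATGGCGG share their last letters, and matches of different motifs were counted separately even where they overlapped. Of the 8 called promoters, 2 held the ETS motif, 2 CACGTG, 1 CAGCTG and 1 CACCTG, and 0 held the NRF1 or YY1 motif.

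The other 5 large subunit genes that fell differed less from WT. Mrpl13 lies on chromosome 15 (55534095 to 55557312, minus strand, mm10) and Mrpl28 on chromosome 17 (26123503 to 26126613, plus strand). Mrpl13, the counterpart of bacterial L13, was measured at 50.1, 51.1 and 41.7 FPKM in knockout, against 67.8, 65.2 and 75.4 FPKM in WT. Its log2 fold change was -0.56 with an SE of 0.12 (adjusted p = 0.0169, edgeR), and the groups did not overlap. Mrpl28, the counterpart of bacterial L28, was measured at 42.0, 35.3 and 36.5 FPKM in knockout, against 48.5, 58.1 and 67.9 FPKM in WT. The WT libraries were widely spread, at 58.2 ± 9.73 FPKM beside 37.9 ± 3.58 FPKM in knockout (SD, n = 3 each), and the log2 fold change was -0.63 with an SE of 0.14 (adjusted p = 0.0175, edgeR). Leaving out 1 library ended the call of Mrpl13 without knockout replicate 3 (adjusted p = 0.0975, edgeR) or WT replicate 3 (0.0756). It ended that of Mrpl28 without knockout replicate 3 (adjusted p = 0.090, edgeR) or WT replicate 3 (0.0784).

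Mrpl49 and Mrpl40 have no bacterial counterpart, and Mrpl40 is a protein of the central protuberance. Mrpl49 lies on chromosome 19 (6053630 to 6057755, minus strand, mm10) and Mrpl40 on chromosome 16 (18872018 to 18876637, minus strand). Mrpl49 had 19.6, 17.5 and 18.9 FPKM in knockout, against 25.5, 27.6 and 25.2 FPKM in WT, the lowest level among the called members. The difference was small and even across libraries, with a log2 fold change of -0.49 and an SE of 0.12 (adjusted p = 0.0245, edgeR). Mrpl40 had 60.1, 64.8 and 46.9 FPKM in knockout, against 74.0, 80.1 and 91.3 FPKM in WT. Knockout replicate 3 was the lowest and WT replicate 3 the highest, and the log2 fold change was -0.53 with an SE of 0.13 (adjusted p = 0.0272, edgeR). The call of Mrpl49 ended without knockout replicate 2 (adjusted p = 0.051, edgeR) or 3 (0.0946) and without WT replicate 1 (0.0662), 2 (0.0695) or 3 (0.0602). That of Mrpl40 ended without knockout replicate 1 (adjusted p = 0.0581, edgeR) or 3 (0.131) and without WT replicate 2 (0.0519) or 3 (0.112). It also ended under limma (adjusted p = 0.0511 with a pseudocount of 1 and 0.0551 with 0.1) and with a B cell covariate (0.0648, edgeR).

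The stalk of the large subunit recruits the translation factors. Mrpl12, the counterpart of bacterial L7/L12 in that stalk, also binds the mitochondrial RNA polymerase. Its gene lies on chromosome 11 (120484637 to 120488754, plus strand, mm10). It was measured at 50.6, 53.6 and 46.8 FPKM in knockout, against 60.9, 69.0 and 76.9 FPKM in WT, with no overlap. The log2 fold change was -0.47 with an SE of 0.11 (adjusted p = 0.0253, edgeR). This call ended without knockout replicate 1 (adjusted p = 0.0666, edgeR) or 3 (0.137), without WT replicate 2 (0.0562) or 3 (0.105), and with a B cell covariate (0.0684). Mrpl10 anchors Mrpl12 to the ribosome and Mrpl11 forms the stalk base, and neither passed the threshold. Mrpl10 had 38.2, 38.0 and 38.5 FPKM in knockout, against 41.7, 37.5 and 47.7 FPKM in WT, with overlapping groups (log2 fold change -0.16, adjusted p = 0.417, edgeR). Mrpl11 had 8.35, 8.35 and 9.60 FPKM in knockout, against 9.42, 11.0 and 9.45 FPKM in WT, again with overlap (log2 fold change -0.20, adjusted p = 0.408, edgeR).

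Among the Mrps genes 2 fell, and 1 of them is not a gene of the small subunit in the present view. Mrps36 lies on chromosome 13 (100735940 to 100744659, minus strand, mm10) and Mrps18c on chromosome 5 (100798759 to 100804467, plus strand). Mrps36, now counted as a subunit of the 2-oxoglutarate dehydrogenase complex of the citric acid cycle, was measured at 41.5, 37.3 and 35.4 FPKM in knockout, against 58.0, 49.7 and 53.3 FPKM in WT. The groups did not overlap, and the log2 fold change was -0.51 with an SE of 0.14 (adjusted p = 0.0401, edgeR). Mrps18c was measured at 66.9, 72.5 and 68.2 FPKM in knockout, against 95.2, 95.1 and 84.1 FPKM in WT, with a log2 fold change of -0.42 and an SE of 0.12 (adjusted p = 0.0458, edgeR). Without 1 library the call of Mrps18c was lost in each of the 6 fits, with an adjusted p between 0.0606 and 0.168 (edgeR), and it was lost under DESeq2 (adjusted p = 0.0577) and with the B cell covariate (0.0535, edgeR). It was lost as well in edgeR with DESeq2 size factors (adjusted p = 0.0502), with upper quartile scaling (0.0579) and with no filter (0.0706). The call of Mrps36 ended without knockout replicate 1 (adjusted p = 0.0534, edgeR), 2 (0.0737) or 3 (0.177) and without WT replicate 1 (0.134) or 3 (0.107).

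Mrps18c has sister genes that encode other forms of the same bacterial protein, S18. Mrps18b, also a small subunit protein, had 62.3, 67.7 and 67.5 FPKM in knockout, against 59.5, 65.4 and 69.1 FPKM in WT, with overlapping groups (log2 fold change 0.01, adjusted p = 0.955, edgeR). Mrps18a sits in the large subunit despite its name, and had 31.1, 28.9 and 34.1 FPKM in knockout, against 30.9, 34.0 and 33.8 FPKM in WT (log2 fold change -0.08, adjusted p = 0.748, edgeR). The differences between the fold changes of these genes were not tested. Mrps30 is likewise a protein of the large subunit, and had 43.4, 43.7 and 37.9 FPKM in knockout, against 38.4, 49.2 and 43.8 FPKM in WT (log2 fold change -0.08, adjusted p = 0.680, edgeR). Genes were also placed by structure, with Mrps18a and Mrps30 in the large subunit and Mrps36 left out. Then 7 of 51 large subunit genes (13.7%) and 1 of 26 small subunit genes (3.85%) fell, beside 8.77% of all tested genes. The median log2 fold changes were -0.18 and -0.15, and the difference between the subunits was not tested.

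**Figure D2:**
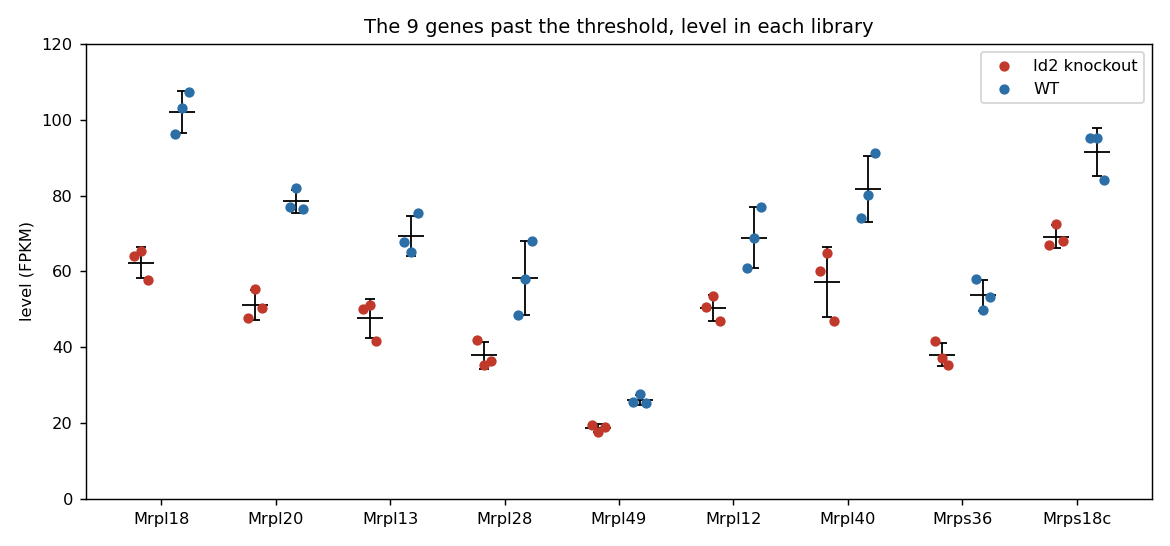
Level (FPKM) of the 9 genes past the threshold in each of the 6 libraries, Id2 knockout in red and WT in blue; horizontal lines are means and error bars are 1 SD (n = 3 each). In each gene all knockout points lie below all WT points, from the widest gap in Mrpl18 (62.3 FPKM in knockout, 102 FPKM in WT) to that in Mrpl49 (18.7 FPKM in knockout, 26.1 FPKM in WT).

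Other members with a known place in the ribosome did not pass the threshold. Mrps12, at the decoding centre of the small subunit, had 29.7, 25.4 and 33.4 FPKM in knockout, against 38.3, 36.1 and 36.6 FPKM in WT, with no overlap (log2 fold change -0.34, adjusted p = 0.209, edgeR). Mrps34, which small subunit stability depends on, had 61.7, 46.9 and 52.8 FPKM in knockout, against 57.7, 56.3 and 55.0 FPKM in WT, with overlap (log2 fold change -0.08, adjusted p = 0.756, edgeR). Mrpl45, which ties the exit tunnel to the inner membrane, had 17.5, 17.0 and 15.1 FPKM in knockout, against 17.5, 18.4 and 19.5 FPKM in WT (log2 fold change -0.18, adjusted p = 0.361, edgeR). Mrpl58, a peptidyl-tRNA hydrolase built into the large subunit, had 58.0, 59.7 and 66.7 FPKM in knockout, against 67.3, 73.1 and 76.8 FPKM in WT. All its knockout values were below all WT values, yet the adjusted p was 0.192 (edgeR, log2 fold change -0.25).

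The falls of largest size that did not pass were those of Mrpl14 and Mrps22. Mrpl14 had 23.4, 24.6 and 20.5 FPKM in knockout, against 27.6, 31.0 and 34.5 FPKM in WT, with no overlap (log2 fold change -0.46, SE 0.16, adjusted p = 0.101, edgeR). Mrps22 had 15.5, 22.4 and 13.2 FPKM in knockout, against 18.3, 29.5 and 25.9 FPKM in WT, where libraries of both groups were scattered and overlapped (log2 fold change -0.54, SE 0.21, adjusted p = 0.135, edgeR). Without knockout replicate 2 its adjusted p was 0.0374. On the other side, the rises of largest size were those of Mrpl52, with a log2 fold change of 0.14, and Mrps6, with 0.16, and neither passed. Mrpl52 had 77.7, 68.4 and 72.7 FPKM in knockout, against 70.6, 70.3 and 55.9 FPKM in WT, with overlap (adjusted p = 0.607, edgeR). Mrps6 had 26.7, 27.9 and 27.7 FPKM in knockout, against 23.8, 24.2 and 24.7 FPKM in WT (adjusted p = 0.497, edgeR). With Mrpl23, Mrps6 was 1 of the 2 members whose knockout values all lay above the WT values.

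The members differed more in level than between genotypes. Over all 6 libraries the mean level ran from 5.45 FPKM in Mrpl17 to 137 FPKM in Mrpl23, a 25.1-fold range among the Mrpl genes, and from 8.74 FPKM in Mrps25 to 80.3 FPKM in Mrps18c, a 9.19-fold range among the Mrps genes. Mrpl23, which lies at the exit tunnel, had 149, 136 and 144 FPKM in knockout, against 131, 133 and 127 FPKM in WT (log2 fold change 0.12, adjusted p = 0.486, edgeR). Next came Mrpl54 with 123, 126 and 107 FPKM in knockout, against 126, 147 and 129 FPKM in WT (log2 fold change -0.19, adjusted p = 0.292, edgeR). The spreads of these highest 2 overlapped in WT. Mrps16 followed Mrps18c among the Mrps genes, with 74.6, 65.1 and 74.0 FPKM in knockout, against 82.5, 79.7 and 86.2 FPKM in WT (log2 fold change -0.23, adjusted p = 0.260, edgeR).

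At the low end, Mrpl17 had 5.33, 4.45 and 4.78 FPKM in knockout, against 5.37, 6.32 and 6.42 FPKM in WT, and Mrpl19 had 9.12, 8.74 and 8.91 FPKM in knockout, against 8.98, 10.2 and 7.82 FPKM in WT. The groups of Mrpl17 lay just apart and those of Mrpl19 overlapped, and neither passed (adjusted p = 0.140 and 0.931, edgeR). Mrps25 had 8.51, 7.19 and 9.78 FPKM in knockout, against 7.88, 8.84 and 10.3 FPKM in WT, and Mrps31 had 9.33, 11.3 and 10.7 FPKM in knockout, against 9.82, 11.2 and 12.2 FPKM in WT. Both overlapped between groups (adjusted p = 0.740 and 0.743, edgeR). The order of levels was much alike in the 2 genotypes, with a Spearman rho of 0.978 over the 49 Mrpl genes and 0.966 over the 29 Mrps genes, as a description over genes measured in the same libraries. Level and fold change had a rho of 0.05 in Mrpl genes and -0.13 in Mrps genes. The median coefficient of variation between libraries of a group was 7.79% in knockout and 9.60% in WT for Mrpl genes, and 8.22% in knockout and 9.55% in WT for Mrps genes.

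Summed levels gave the size of the difference for each symbol prefix as a whole, which is not exactly the subunit. The 49 Mrpl genes together came to 2174, 2104 and 2075 FPKM in the knockout libraries, against 2336, 2477 and 2407 FPKM in the WT libraries. The 29 Mrps genes came to 1088, 1032 and 1040 FPKM in knockout, against 1140, 1218 and 1199 FPKM in WT. Neither sum overlapped between groups, and knockout over WT was 0.880 for Mrpl genes and 0.888 for Mrps genes. The median log2 fold change was -0.19 for the Mrpl genes, 42 of 49 below 0, and -0.14 for the Mrps genes, 24 of 29 below 0. The difference between the prefixes was not tested. Relative to the WT mean, the median log2 ratio of the Mrpl genes was -0.13, -0.16 and -0.21 in knockout replicates 1, 2 and 3. Set against the mean of the other WT libraries, it was -0.13, 0.09 and -0.01 in WT replicates 1, 2 and 3. WT replicate 1 was thus the lowest of the WT libraries, and over all tested genes its median on the same scale was -0.09. The genes with a bacterial counterpart had 6 falls in 48 and a median of -0.17. Those without had 3 falls in 30 and a median of -0.17. Over all 10890 tested genes 8.77% fell, and the median was 0.01.

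**Figure D3:**
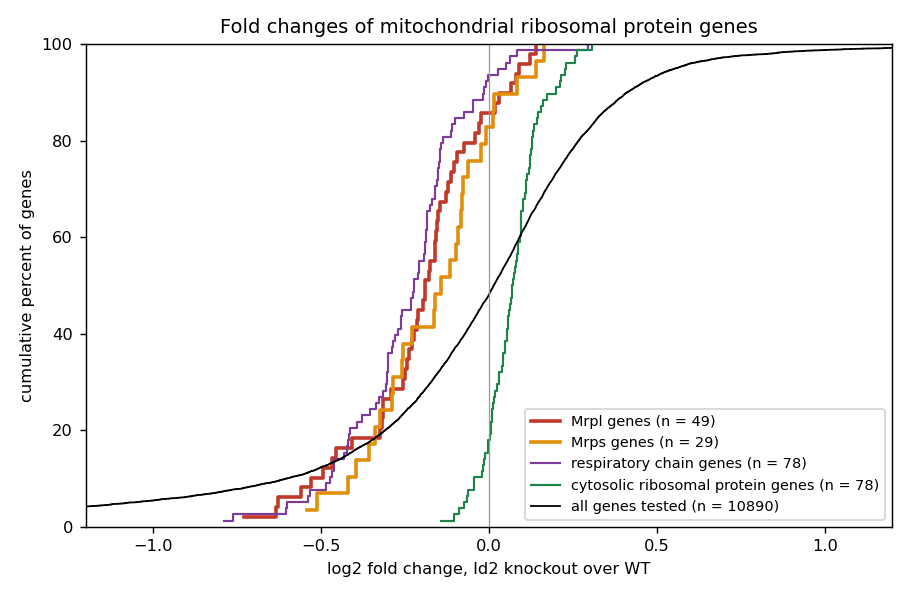
Cumulative percent of genes (vertical axis) at or below each log2 fold change (horizontal axis, Id2 knockout over WT, edgeR) for Mrpl genes, Mrps genes, respiratory chain genes, cytosolic ribosomal protein genes and all 10890 tested genes. The medians of the Mrpl and Mrps genes (-0.19 and -0.14) and of the respiratory chain genes (-0.22) lie left of 0, and that of the cytosolic genes (0.07) lies right of 0. Each curve has genes on both sides of 0.

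Gene sets with related functions were read from the same fit. The 78 cytosolic ribosomal protein genes, which make up the ribosome of the cytosol, had 0 falls and 0 rises and a median log2 fold change of 0.07, with 2 of them higher and 0 lower at an unadjusted p under 0.05. DESeq2 and limma gave 0 calls among them as well. Though none was called, 64 of the 78 cytosolic genes had a log2 fold change above 0 and 14 below. In 13 of them (16.7%) all knockout libraries lay above all WT libraries, against 15.3% of all tested genes, and in 0 below. Of the 78 tested respiratory chain genes, whose products work beside the proteins that the mitochondrial ribosome makes, 12 fell (15.4%) and 0 rose. Over all tested genes 8.77% fell and 3.14% rose. The median log2 fold change of the respiratory chain genes was -0.22. In 46 of these 78 genes (59.0%) all knockout libraries lay below all WT libraries, against 16.8% of all tested genes. The falls numbered 5 without knockout replicate 3 or WT replicate 3 and 6 without knockout replicate 1. The genes of the mitochondrially encoded proteins were searched by symbol and 0 were listed, so their levels are not given.

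The other nuclear genes of mitochondrial gene expression did not share one direction. In 5 lists with 87 tested genes, 2 fell (2.30%) and 2 rose (2.30%), against 8.77% and 3.14% of all tested genes. In these lists 41 genes (47.1%) had a log2 fold change below 0, against 48.1% of all tested genes. Their median was 0.04. The 5 ribosomal proteins with symbols of another kind had 0 calls in edgeR, DESeq2 and limma, and 1 was lower at an unadjusted p under 0.05. Of the 4 in the small subunit, Dap3 had 18.6, 17.6 and 18.6 FPKM in knockout, against 16.9, 16.7 and 17.5 FPKM in WT (log2 fold change 0.09, adjusted p = 0.607, edgeR). Ptcd3 had 28.6, 26.9 and 30.3 FPKM in knockout, against 21.5, 27.1 and 24.5 FPKM in WT (0.22, adjusted p = 0.242). Chchd1 had 42.5, 40.4 and 32.1 FPKM in knockout, against 47.5, 53.2 and 52.0 FPKM in WT (-0.42, adjusted p = 0.0946). The groups of Dap3 and Chchd1 lay apart, in opposite directions, and those of Ptcd3 overlapped. Aurkaip1 had 65.2, 56.6 and 63.3 FPKM in knockout, against 69.6, 75.3 and 66.5 FPKM in WT (-0.20, adjusted p = 0.265). Its knockout values also all lay below its WT values. Gadd45gip1, a large subunit protein, had 52.3, 44.8 and 48.0 FPKM in knockout, against 47.0, 57.6 and 53.5 FPKM in WT (-0.13, adjusted p = 0.479).

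Among 27 assembly and rRNA modification genes, 1 rose and 0 fell, with a median log2 fold change of -0.00. Mettl17, a small subunit assembly factor, had 24.4, 25.7 and 26.6 FPKM in knockout, against 17.0, 18.9 and 18.9 FPKM in WT, with no overlap (log2 fold change 0.47, SE 0.12, adjusted p = 0.0255, edgeR). Mettl17 lost its call without knockout replicate 1 (adjusted p = 0.0504, edgeR) or 3 (0.114) and without WT replicate 1 (0.0649), 2 (0.0592) or 3 (0.0743). Among 13 translation factor genes 0 fell and 0 rose by edgeR, DESeq2 or limma, with 3 lower at an unadjusted p under 0.05 and a median of -0.07. Of 22 aminoacyl-tRNA synthetase genes 1 fell and 1 rose, with a median of 0.08. Gars, a glycyl-tRNA synthetase that serves both cytosol and mitochondria, had 52.2, 56.6 and 49.8 FPKM in knockout, against 73.1, 72.2 and 81.9 FPKM in WT (log2 fold change -0.53, SE 0.10, adjusted p = 0.00638, edgeR). The groups were clearly apart, though without knockout replicate 3 the adjusted p was 0.053.

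Vars2, the mitochondrial valyl-tRNA synthetase, had 4.90, 4.16 and 5.08 FPKM in knockout, against 2.36, 2.38 and 3.35 FPKM in WT (log2 fold change 0.80, SE 0.20, adjusted p = 0.0271, edgeR). Both groups were at a low level. Vars2 lost its call without knockout replicate 1 (adjusted p = 0.0826, edgeR) or 3 (0.115), without WT replicate 1 (0.0708) or 2 (0.0828), and with the B cell covariate (0.0609). Of 20 genes of mitochondrial DNA upkeep and transcription, 1 fell and 0 rose, with a median of 0.04. Mgme1, an exonuclease of mitochondrial DNA, had 2.11, 2.32 and 3.09 FPKM in knockout, against 5.37, 4.92 and 5.28 FPKM in WT (log2 fold change -1.06, SE 0.22, adjusted p = 0.0109, edgeR).

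Several members start next to another gene. A protein-coding gene on the other strand began within 1000 bases of the start of 33 members (GENCODE M21), and 30 of these neighbours were tested. Of these 30 neighbours 4 fell and 1 rose, beside 8.77% and 3.14% of all tested genes. The median log2 fold change of the neighbours was -0.04. The neighbours named here were chosen after their values were seen. Tcp1, a subunit of the cytosolic chaperonin, begins 644 bases from the GENCODE start of Mrpl18 and had 89.0, 97.4 and 86.3 FPKM in knockout, against 120, 122 and 129 FPKM in WT. The groups did not overlap, and the log2 fold change was -0.46 with an SE of 0.09 (adjusted p = 0.0104, edgeR). The exons of Mrpl18 and Tcp1 overlap on opposite strands. The strand setting of the counting was not given in the sources used here. Reads in the overlap therefore cannot be assigned with certainty. Such overlaps concern 20 members in all, 3 of them called: Mrpl18, Mrpl13 (with Mtbp) and Mrpl49 (with Syvn1). Another 4 members, Mrpl53, Mrps24, Mrps6 and Mrps34, share exon positions with a gene on the same strand, and none of them was called.

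For the other called members with a tested neighbour, the neighbour did not pass the threshold. The log2 fold change was -0.32 for Mtbp beside Mrpl13 (adjusted p = 0.439, edgeR), 0.13 for Fau beside Mrpl49 (0.418), 0.07 for Hira beside Mrpl40 (0.899) and -0.35 for Helq beside Mrps18c (0.259). The neighbours that fell beside members without a call were Ncapd2, a condensin subunit beside Mrpl51 (log2 fold change -1.07, adjusted p = 0.0166, edgeR), Eme1, a DNA repair nuclease subunit beside Mrpl27 (-1.09, adjusted p = 0.0284), and Ndufs6, a complex I subunit beside Mrpl36 (-0.41, adjusted p = 0.0361). Pnpla7 beside Mrpl41 rose (0.66, adjusted p = 0.00558).

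B cell transcripts varied between libraries within both groups. Of the genes listed as myeloid and dendritic cell markers, some differed between the groups and others did not. Which cells made these transcripts was not tested. With a covariate for B cell markers, 6 Mrpl genes and 1 Mrps gene fell, beside 904 of all 10890 tested genes. The Mrpl and Mrps medians were -0.18 and -0.16. In a comparison of only the 3 libraries low in B cell markers (2 knockout, 1 WT), chosen after the data were seen, these medians were -0.15 and -0.048. That fit has 1 WT library, assumed to vary like the knockout libraries. In it Mrpl28 (adjusted p = 0.188, edgeR), Mrpl49 (0.0989) and Mrpl12 (0.143) did not pass, and Mrps23 did (0.0307). Of 12 myeloid and dendritic cell markers 11 were listed, and their summed level was 31.2, 38.4 and 33.4 FPKM in knockout, against 59.9, 47.5 and 47.6 FPKM in WT. Of 6 tested, Itgax, Zbtb46 and Batf3 fell, and Itgam (log2 fold change -2.62), Xcr1 (-0.10) and Lyz2 (0.28) did not pass. Lyz2 made up the largest share of the sum in each knockout library, with 26.5, 30.0 and 27.0 FPKM in knockout, against 28.2, 20.2 and 19.3 FPKM in WT, while Csf1r, Adgre1, Cd14, Flt3 and Siglech were at or under 1 FPKM in every library. The summed level of CD4 T cell markers was between 8.94 and 10.03 FPKM in knockout and between 8.75 and 13.2 FPKM in WT. The part of other cell types in the levels of the mitochondrial ribosomal protein genes was not tested.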

How the data were processed

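Total RNA of sorted CD8+ T cells was sequenced in 3 Id2 knockout and 3 WT libraries. Per the file headers, the authors deposited an expected count and an FPKM value per gene. CASAVA, Bowtie2, RSEM and mm10 are named in the submitters' processing notes. RSEM divides reads that match several genes, and 25.0% to 26.2% of the expected counts were not whole. Genes not listed in a library were set to 0. NCBI gene numbers were given symbols from a RefSeq table of the same assembly (16707 of 16749 matched, 42 did not).

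Expected counts were rounded and tested with edgeR 4.0.16 (quasi-likelihood, TMM scaling, two-sided, R 4.3.3) over the 10890 genes that reached 1 FPKM in 3 or more libraries, and p-values were adjusted by Benjamini-Hochberg over all of them at 0.05. The SE is the size of the log2 fold change divided by the square root of F. Levels are FPKM, which allow comparison between genes. Alternatives used DESeq2 1.42.0 and limma 3.58.1 (log2 of FPKM plus 1 or plus 0.1). No 2 libraries agreed within counting noise.

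Genes were named by rule: Id2; up to 10 called members per prefix and direction; the 2 highest and 2 lowest; the largest differences that did not pass; 12 members chosen by role; and up to 3 called genes per list and direction. Cytosolic ribosomal and respiratory chain genes were taken by symbol. The members and lists were chosen with earlier results of these data known. Strand, aligner settings and tool versions were not given in the sources used here.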

Additional observations from a re-analysis of the deposited data

How the results depend on the processing

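No member changed the sign of a called value. The number of Mrpl genes that fell (7) stayed between 5 and 7 in the alternatives with all 6 libraries, and leaving out 1 library gave 2 to 6, with 4 without WT replicate 2 and 2 without WT replicate 3 or knockout replicate 3. The number of Mrps genes that fell (2) was 1 under DESeq2, DESeq2 size factors, upper quartile scaling, no filter, the B cell covariate and placement by structure, and 0 to 1 without 1 library. Leave-one-out medians were -0.21 to -0.16 for Mrpl and -0.19 to -0.11 for Mrps genes. Over all genes, leaving out 1 library gave 517 to 1082 falls and 84 to 480 rises, beside 955 and 342. The 2 falls and 2 rises of the related lists became 1 and 1 at an FPKM minimum of 5, 1 rise with the B cell covariate, and 1 to 3 falls and 0 to 3 rises without 1 library. In the 3 libraries low in B cell markers, 4 Mrpl genes fell (median -0.15; Mrps -0.048), 4 genes of the related lists fell, and 631 of all genes rose. The cause of these shifts was not tested, and the fits without 1 library also hold fewer libraries.

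The replicate numbers were not treated as pairs, since the same-numbered libraries had correlated deviations of 0.118, 0.075 and -0.03. With the replicate block 5 Mrpl genes and 1 Mrps gene fell, and the block ended the calls of Mrpl12 (adjusted p = 0.0502, edgeR), Mrpl40 (0.0538) and Mrps18c (0.0725). Across all genes the block gave 888 falls and 295 rises.

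Of 78 members, 2 were called in every fit and 66 in none; Mrpl33, Mrps22 and Mrps23 were called only in 1 alternative each. With 3 libraries per group and a median SE of 0.13 for the Mrpl genes, differences near the median of the members are smaller than the fit can call.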
